A study of Mus musculus with 6 samples.

Results

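The genes described here were 43 mouse genes of the heat shock response and of endoplasmic reticulum (ER) stress, out of 24594 entries in a table of nuclear RNA-seq counts. They were listed by the known roles of their products, with earlier results of these data known, and all 43 had an entry. They formed 3 branches: 20 genes of the ER (16 for folding and quality control, 3 stress sensors and Xbp1), 10 genes around the transcription factor ATF4, and 13 heat shock genes (11 of the cytosol and nucleus, and the mitochondrial chaperonin pair). Nuclei came from the cerebellum of mice aged 7 months and were sorted for NeuN, a neuronal nuclear antigen. The sample labels name the cells as granule cells, the small and very numerous excitatory neurons of the cerebellar cortex. One genotype was Ezh1(wt/wt);Neurod1-Cre, called WT here, and the other was Ezh1(cKO/cKO);Neurod1-Cre, a conditional knockout called cKO here. Each genotype had 3 libraries. Both carried Neurod1-Cre, in which Cre recombinase bears the name of Neurod1, a gene that granule neurons express, so no library shows the genes without Cre. Ezh1 encodes a catalytic subunit of a Polycomb complex, which places methyl groups on lysine 27 of histone H3. The comparison of genotypes addresses whether postmitotic neurons depend on this mark, H3K27me3, for the control of their genes.

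Cells answer misfolded protein by separate routes in separate compartments. In the cytosol and nucleus the transcription factor HSF1 induces heat shock proteins, the chaperones that hold or refold other proteins. In the ER the sensors IRE1 (encoded by Ern1), ATF6 and PERK (encoded by Eif2ak3) detect unfolded protein. IRE1 splices the Xbp1 transcript and ATF6 is cut to release a transcription factor, and both routes raise ER chaperones. PERK and the amino acid sensor GCN2 (encoded by Eif2ak4) phosphorylate the initiation factor of translation, which slows protein synthesis in general while the ATF4 message is translated more. Much of this control is by splicing, cleavage and translation, which gene counts from nuclear RNA do not measure.

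Library totals ran from 6340236 to 8284768 counts, and their scaling factors from 0.982 to 1.02. Whether the libraries came from different animals was not stated, so every p-value here measures the spread between these libraries, which may be technical. Ezh1 itself, the targeted gene, was at 71.0, 75.7 and 83.3 counts per 1e+06 counts of the library (CPM) in the WT libraries and at 52.5, 51.0 and 55.6 CPM in the cKO libraries. Its log2 fold change of cKO over WT was -0.53 with an SE of 0.10 (edgeR adjusted p = 0.00672), and the call was lost without WT replicate 3 or cKO replicate 1 (adjusted p up to 0.115). The deleted part of the gene was not stated, so this fold gives no measure of how complete the deletion was. Granule cell markers, all 12 of which passed the filter on low counts, summed to 3987 to 4112 CPM in WT and 3922 to 4677 CPM in cKO. Of these, 1 was called, Neurod1, higher in cKO with a log2 fold change of 1.11. Replicate 1 of each genotype held Xist, which coats an inactive X, at 811 and 831 CPM, against 1.39 to 4.46 CPM in the other 4 libraries.

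Of the 43 genes, 39 had enough counts to be tested. None was called at an adjusted p below 0.05 (edgeR quasi-likelihood test, Benjamini-Hochberg adjustment over 13115 tested genes), where 0.579% of all tested genes were called (0.32% higher and 0.259% lower). At an unadjusted p below 0.05, 9 of the 39 were higher in cKO, where 5.8% of all tested genes were, and 2 were lower, where 6.05% were. All 9 were ER genes and both lower ones were in the ATF4 branch. DESeq2 gave most of the 39 no adjusted p, Pdia6 among them (DESeq2 unadjusted p = 0.00101). Of the few it adjusted it called 1 (Hsp90b1, adjusted p = 0.0487), where it called 2.9% of the 3959 genes it adjusted. The limma-voom fit called 0 of the 39, where it called 0.587% of genes. The 3 branches lay in different directions: 19 of 20 ER genes had a log2 fold change above 0 (median 0.27), all 10 ATF4 genes had one below 0 (median -0.23), and heat shock genes were divided, 6 of 9 above 0 (median 0.10). Of all tested genes 48.8% were above 0, with a median of -0.0060. In bulk RNA, fewer cells of a type and less RNA per cell cannot be told apart, for these genes as for all others.

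**Figure D1:**
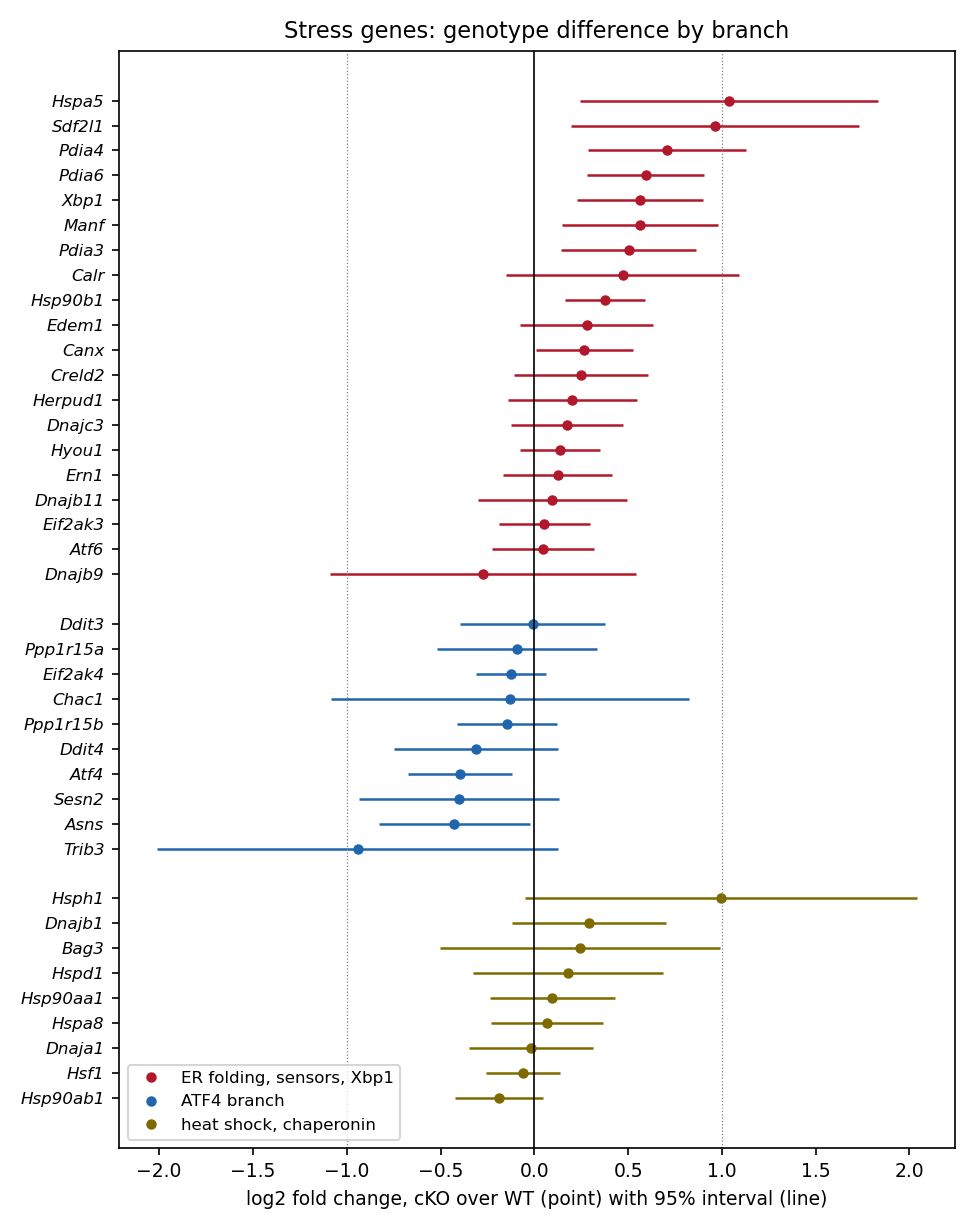
Log2 fold change of cKO over WT for each of the 39 tested genes, with its 95% interval from the edgeR fit, coloured by branch. The ER genes lie above 0 except Dnajb9, the ATF4 genes all lie below 0, and the heat shock genes lie on both sides.

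The chaperones of the ER lumen were higher on average in cKO. Hspa5 encodes BiP, the main ER member of the Hsp70 family, which binds unfolded chains and holds the stress sensors inactive. Its counts were 333, 199 and 226 for WT and 588, 479 and 369 for cKO, or 50.3, 27.7 and 27.4 CPM against 84.6, 74.0 and 56.8 CPM. Every cKO library lay above every WT library, and WT replicate 1 stood well above the other WT libraries. The log2 fold change was 1.04 with an SE of 0.31 (95% interval 0.24 to 1.83), the highest of the 39 genes, with an unadjusted p of 0.0202 and an adjusted p of 0.303. With a term for the kind of library (replicate 1 against the others) the log2 fold change was 1.07 and the edgeR adjusted p was 1.01e-05, and over all 14 alternatives the adjusted p ran from 1.76e-06 to 0.673. Its spread between libraries of a genotype was a coefficient of variation of 25.4%, against a median of 11.1% over the 6796 genes at 10 to 100 CPM. Hsp90b1 encodes GRP94, the Hsp90 of the ER, and was at 116, 99.2 and 89.6 CPM in WT and at 152, 123 and 120.4 CPM in cKO. The groups did not overlap, though WT replicate 1 came close to the lower cKO libraries. Its log2 fold change was 0.38 with an SE of 0.10 (adjusted p = 0.102).

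Hspa5 lies on mouse chromosome 2 (chr2:34772090-34776529, GRCm38.p6) and overlaps Rabepk in that annotation. Rabepk was at 9.83 ± 0.916 CPM in WT and 13.3 ± 0.890 CPM in cKO (SD, n = 3), its log2 fold change being 0.44 (adjusted p = 0.362). It too was higher in every cKO library, and since the use of strand in counting was not stated, reads of the 2 genes may not be told apart. Hsp90b1 overlapped no annotated gene. In all, 15 of the 43 genes overlapped another.

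The partners of BiP were more varied. Hyou1 encodes a large ER chaperone that exchanges the nucleotide of BiP, and was at 67.5, 60.3 and 64.7 CPM in WT and at 79.7, 72.1 and 59.9 CPM in cKO. Its groups overlapped, with a log2 fold change of 0.14 (adjusted p = 0.662). Sdf2l1, a small partner of the BiP chaperone cycle, was at 4.68, 2.09 and 2.43 CPM in WT and 8.92, 5.40 and 3.39 CPM in cKO, from 15 to 62 counts a library. Its log2 fold change was 0.96 with an SE of 0.37 (adjusted p = 0.278), and cKO replicate 3 lay below WT replicate 1. The J-domain proteins Dnajb11 and Dnajc3, which bring clients to BiP, had log2 fold changes of 0.10 and 0.18. Dnajb9, another J-domain protein of the ER and a known target of XBP1, was the exception of the branch. It was at 2.72, 3.20 and 2.67 CPM in WT and at 2.01, 2.63 and 2.46 CPM in cKO, every cKO library below every WT library. With only 14 to 23 counts a library, its log2 fold change of -0.27 had an interval from -1.09 to 0.54.

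The protein disulfide isomerases, which make and rearrange disulfide bonds in the ER, included the gene with the smallest p of the 39 tested, Pdia6. Pdia6 was at 21.6, 20.2 and 16.3 CPM in WT and at 32.5, 30.6 and 24.2 CPM in cKO. The groups did not overlap, and the log2 fold change of 0.59 ± 0.15 (SE) had an adjusted p of 0.0766, the 101st smallest p of all tested genes. Pdia4 was at 14.2, 9.33 and 7.65 CPM in WT and at 16.4, 16.5 and 17.5 CPM in cKO. Its cKO libraries were close together while its WT libraries spread, with replicate 1 highest, and the log2 fold change was 0.71 with an SE of 0.20 (adjusted p = 0.114). Pdia3, which acts on glycoproteins held by calnexin and calreticulin, was at 17.4, 20.1 and 13.1 CPM in WT and at 29.4, 22.2 and 19.7 CPM in cKO. cKO replicate 3 lay just under WT replicate 2, and the log2 fold change was 0.50 with an SE of 0.17 (adjusted p = 0.218). Pdia3 overlaps Catsper2 in the annotation, which was at 14.9 ± 2.61 CPM in WT and 13.5 ± 3.27 CPM in cKO (SD, n = 3). Reads of Pdia3 may thus be partly those of Catsper2.

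Calr and Canx encode calreticulin and calnexin, the soluble and the membrane-bound lectin chaperones that hold newly made glycoproteins. Calr was at 80.8, 66.5 and 43.2 CPM in WT and at 99.0, 78.0 and 85.9 CPM in cKO. WT replicate 1 lay above cKO replicate 2, and the log2 fold change of 0.47 had an adjusted p of 0.554. Canx was at 29.8, 28.6 and 29.0 CPM in WT and at 36.5, 32.1 and 36.3 CPM in cKO. It was the steadiest of the ER genes, with a coefficient of variation of 5.66%, and its groups did not overlap. Its log2 fold change was 0.27 with an SE of 0.13 (unadjusted p = 0.0433, adjusted p = 0.401). Manf, a secreted ER-resident protein with neurotrophic activity, was at 10.9, 9.20 and 13.4 CPM in WT and at 19.3, 18.2 and 12.005 CPM in cKO. Here cKO replicate 3 lay among the WT libraries, and the log2 fold change was 0.56 (adjusted p = 0.236). Creld2, Edem1, which takes part in the disposal of misfolded glycoproteins, and Herpud1, a membrane protein of ER-associated degradation, had log2 fold changes of 0.25, 0.28 and 0.20, each with overlapping groups.

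**Figure D2:**
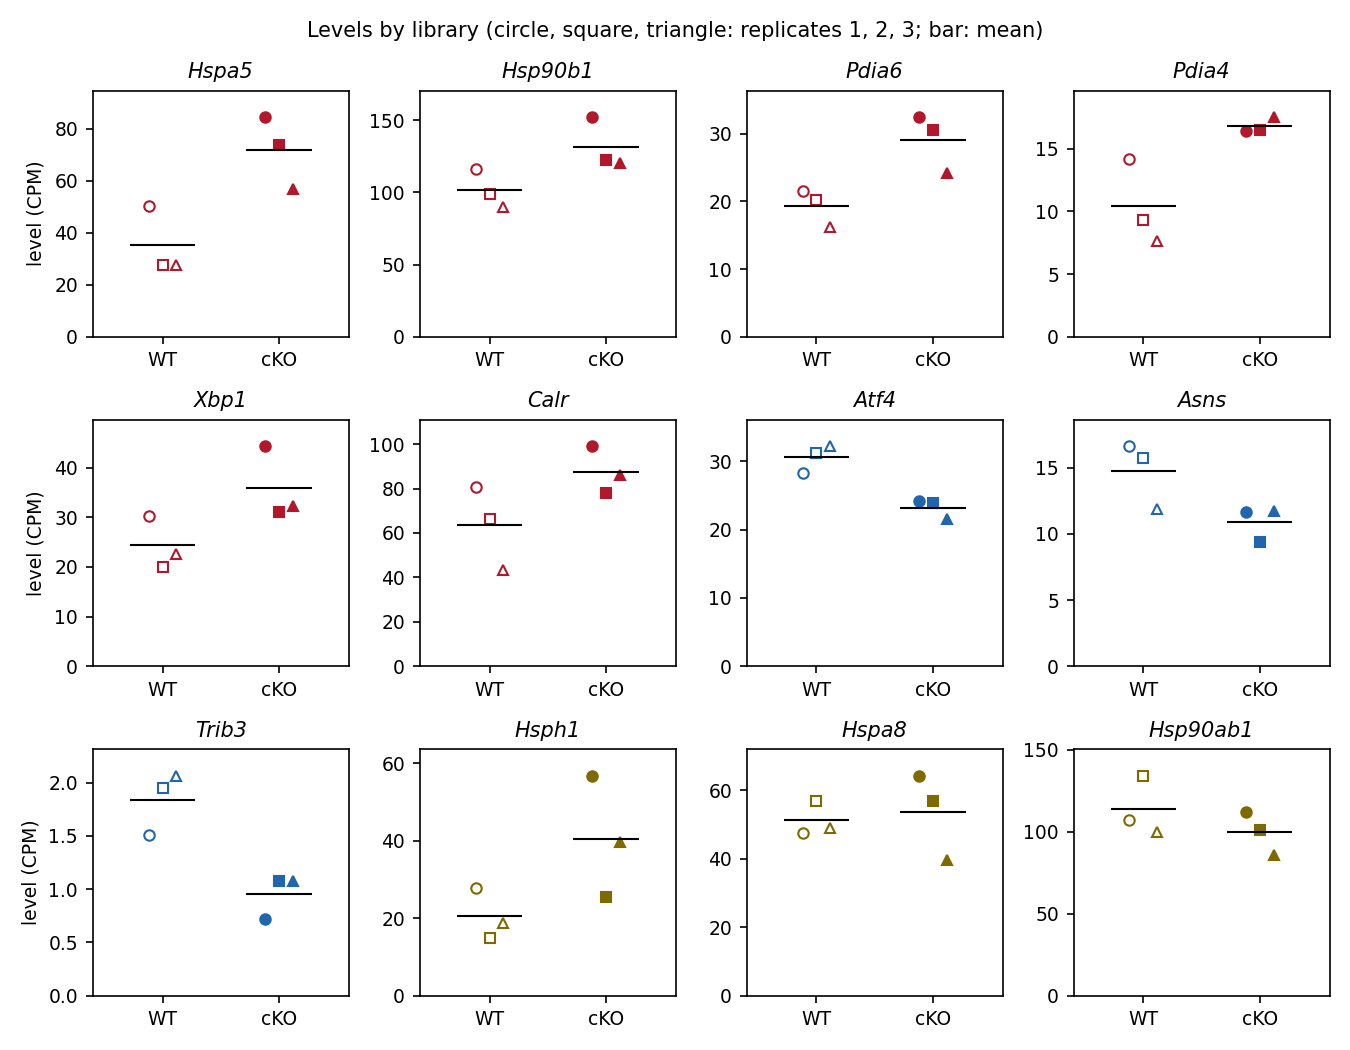
Levels of genes of the 3 branches in each of the 6 libraries. Hspa5, Hsp90b1, Pdia4, Pdia6 and Xbp1 are higher in all 3 cKO libraries than in any WT library.

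Among the regulators of the ER response only Xbp1 stood apart. Xbp1, which encodes the transcription factor that IRE1 activates, was at 30.4, 20.1 and 22.7 CPM in WT and at 44.3, 31.0 and 32.3 CPM in cKO. The highest WT library lay just under the lowest cKO library, and the log2 fold change was 0.56 with an SE of 0.16 (unadjusted p = 0.00202, adjusted p = 0.121). The counts are per gene, so spliced and unspliced Xbp1 were not separated. The sensors themselves were at nearly equal levels. Ern1 was at 29.1 ± 3.71 CPM in WT and 31.6 ± 5.23 CPM in cKO, Atf6 at 33.5 ± 3.78 and 34.5 ± 4.01 CPM, and Eif2ak3 at 41.9 ± 2.51 and 43.5 ± 4.67 CPM (SD, n = 3). Their log2 fold changes were 0.12, 0.045 and 0.054, and the widest of their intervals ran from -0.17 to 0.41 for Ern1.

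Summed over the 20 ER genes, the WT libraries held 653, 549 and 525 CPM and the cKO libraries 833, 707 and 677 CPM, a ratio of means of 1.28. The groups of sums did not overlap. Replicate 1 had the highest sum of each genotype. Of the 20 genes, 14 were highest of all in cKO replicate 1, where 2289 of all 13115 tested genes were. WT replicate 1 was the highest WT library for 13 of the 20, and for 4421 of all tested genes. Replicate 1 of each genotype was the library that held Xist. Within replicate 1 the ratio of cKO to WT was 1.28, and over replicates 2 and 3 it was 1.29. Of the 20 genes, 6 had every cKO library above every WT library and 1 had the reverse, where 7.88% and 8.39% of all tested genes did. An exact permutation test of 3 against 3 libraries cannot go below p = 0.1, so it could call no single gene.

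How many of the genes were called depended on the libraries and the settings, as did the calls over all genes, which were 76 in the analysis above. Without WT replicate 1, 5 were called higher (Hsp90b1, Hspa5, Pdia4, Pdia6 and Xbp1), of 249 genes called in all. Without cKO replicate 2, 2 were called (Hsph1 and Xbp1), of 150 in all, and without cKO replicate 3, 1 (Pdia6), of 63. Without WT replicate 2, WT replicate 3 or cKO replicate 1 the count was 0, of 18, 13 and 14 in all. Leaving out replicate 1 of a genotype left Xist at a high level in the other genotype only. Genotype and kind of library were then partly confounded. With no filter on low counts 6 were called higher, Calr besides the 5 named above, of 277 in all. With the term for the kind of library 5 were called higher, of 125 in all: Hsp90b1, Hspa5, Hsph1, Pdia6 and Xbp1.

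A known element was found in some promoters of the ER genes. The ER stress response element (ERSE) is the arrangement through which ATF6, with the factor NF-Y, is known to act: CCAAT, 9 free bases, then CCACG. It was searched on both strands of RefSeq promoter windows (GRCm38.p6) from 250 bases before to 50 after each start, which were given for 35 of the 43 genes. It was found in 7 of the 17 ER genes with a window (Hspa5, Hsp90b1, Dnajc3, Pdia6, Calr, Canx and Creld2), in 0 of 9 ATF4 genes and 0 of 9 heat shock genes. Among all 27025 genes with a window, 37 (0.137%) held it. A related arrangement, ERSE-II (ATTGGNCCACG), was in Dnajb11 and Herpud1 and in 12 of all genes (0.0444%). No window of these genes held TGACGTGG, the core of an element bound by XBP1, which 0.714% of all genes held and which on its other strand shares CCACG with both elements. The stretches below are shown because they carry the elements outside annotated exons, in Hsp90b1 and Pdia6, whose groups did not overlap, and in Calr, Creld2 and Herpud1, whose groups did. Capitals mark the elements, read 5′ to 3′ on the gene's strand, and CGTGG followed by ATTGG is ERSE on the opposite strand.
Hsp90b1 (chr10:86705518-86705671, minus strand, 2 elements): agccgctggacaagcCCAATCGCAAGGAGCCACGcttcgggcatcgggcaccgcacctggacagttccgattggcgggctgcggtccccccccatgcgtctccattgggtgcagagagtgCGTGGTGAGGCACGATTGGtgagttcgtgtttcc
Pdia6 (chr12:17266476-17266524, plus strand): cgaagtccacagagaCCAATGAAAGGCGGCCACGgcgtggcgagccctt
Calr (chr8:84847060-84847108, minus strand): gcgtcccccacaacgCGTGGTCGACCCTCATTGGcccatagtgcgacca
Creld2 (chr15:88819505-88819553, plus strand): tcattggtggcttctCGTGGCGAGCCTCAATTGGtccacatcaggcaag
Herpud1 (chr8:94386302-94386402, plus strand, ERSE-II after an ATF4-type element): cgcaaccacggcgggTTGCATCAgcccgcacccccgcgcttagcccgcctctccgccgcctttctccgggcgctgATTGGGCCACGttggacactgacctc
In Hspa5 the element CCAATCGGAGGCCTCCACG began at position -65 from the start.

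The 9 ER genes with ERSE or ERSE-II had a median log2 fold change of 0.27, and the 8 with a window and neither had one of 0.39. The former included Hspa5 (1.04) and Pdia6 (0.59) and the latter Sdf2l1 (0.96) and Dnajb9 (-0.27), and the difference of the medians was not tested. Of all tested genes, 18 held ERSE, with a median of 0.22 and 14 above 0. Without the 7 ER genes named above, 11 were left, with a median of 0.11 and 7 above 0. The 8 tested genes with ERSE-II had a median of 0.060 and 5 above 0. For the 117 tested genes with TGACGTGG the median was 0.060, with 71 above 0. Of all 10377 tested genes with a window, 48.5% were above 0, with a median of -0.0084. A match of letters is no evidence of binding, and these data hold no measure of it.

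In the ATF4 branch every gene had a log2 fold change below 0, though Ddit3 was at 0.025 with library size alone as the scaling. Atf4 itself was at 28.3, 31.2 and 32.2 CPM in WT and at 24.2, 23.9 and 21.5 CPM in cKO. The groups did not overlap, the libraries of each genotype lay close together, and the log2 fold change was -0.40 with an SE of 0.13 (unadjusted p = 0.00635, adjusted p = 0.196). Asns encodes asparagine synthetase, a well-known ATF4 target, and was at 16.6, 15.7 and 11.9 CPM in WT and at 11.7, 9.42 and 11.7 CPM in cKO. WT replicate 3 lay barely above the highest cKO library, and the log2 fold change was -0.43 with an SE of 0.20 (unadjusted p = 0.0381, adjusted p = 0.386). Trib3, a pseudokinase that ATF4 and CHOP induce and that holds them back, was at 1.51, 1.95 and 2.06 CPM in WT and at 0.719, 1.08 and 1.08 CPM in cKO. Its groups did not overlap either, but it rested on 5 to 17 counts a library, and the interval of its log2 fold change of -0.94 ran from -2.01 to 0.13.

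The other 7 genes of the branch had overlapping groups. Ddit3, which encodes the transcription factor CHOP of the late and damaging phase of ER stress, was at 12.5 ± 0.946 CPM in WT and 12.4 ± 0.886 CPM in cKO (SD, n = 3). Its interval ran from -0.39 to 0.38. It overlaps Mbd6 and Mars1 in the annotation, so its reads may be partly theirs. Chac1, a glutathione-degrading enzyme, was at 2.15 ± 0.799 and 1.96 ± 0.778 CPM. Sesn2 and Ddit4, stress-induced inhibitors of the growth kinase mTORC1, had log2 fold changes of -0.40 and -0.31. Ppp1r15a and Ppp1r15b encode the subunits that direct a phosphatase to the initiation factor and so undo its phosphorylation, the first induced by stress and the second present at all times. They had log2 fold changes of -0.093 and -0.15. Eif2ak4 had one of -0.12.

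Summed over the 10 genes, the WT libraries held 202, 212 and 206 CPM and the cKO libraries 177, 183 and 179 CPM, a ratio of 0.867. The ratio was 0.873 within replicate 1 and 0.865 over replicates 2 and 3. No gene of the branch was highest in a cKO library. The genes with groups that did not overlap were 3, all lower in cKO, where 8.39% of all tested genes were lower and 7.88% higher without overlap.

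The composite element of C/EBP and ATF factors (CARE, TGATGNAA) was found in Trib3, Asns and Chac1, 3 of the 9 ATF4 genes with a window, in 1 ER gene (Herpud1, above) and in 4.51% of all genes. The stretch of Chac1 is shown because its element lies upstream of the start and outside annotated exons.
Chac1 (chr2:119351034-119351071, plus strand): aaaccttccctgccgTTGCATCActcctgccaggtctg
In Asns the element was TGATGAAA, at position -23. The 282 tested genes with this element had a median log2 fold change of -0.025, beside the -0.0060 of all tested genes.

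A list of 33 other genes of the ATF4 pathway was read beside these 10. It too was chosen with earlier results of these data known, so counts over it are a description and no test. Of the 27 tested, 25 had a log2 fold change below 0, with a median of -0.17, and 2 were called lower in cKO, where 0.259% of all tested genes were. Aldh1l2, a mitochondrial enzyme of folate metabolism, fell from 116 ± 2.48 CPM in WT to 79.8 ± 5.44 CPM in cKO (SD, n = 3), a log2 fold change of -0.54 ± 0.09 (SE, edgeR adjusted p = 0.00128). Aars, the alanyl-tRNA synthetase, fell from 94.0 ± 12.9 to 63.8 ± 5.97 CPM, a log2 fold change of -0.56 ± 0.10 (SE, edgeR adjusted p = 0.00645). Aars overlaps Ddx19b in the annotation, which was at 23.6 ± 3.44 CPM in WT and 20.7 ± 1.68 CPM in cKO. Reads of Aars may thus be partly those of Ddx19b. The call of Aldh1l2 stood under all 14 alternatives, and that of Aars under 11, being lost without WT replicate 2, WT replicate 3 or cKO replicate 1 (adjusted p up to 0.127). Over the 33 genes the sums were 809, 891 and 832 CPM in WT and 709, 690.4 and 726 CPM in cKO, a ratio of 0.839. Of the 27, 8 had every cKO library below every WT library, where 8.39% of all tested genes did. Immediate early genes, which report recent neuronal activity and include partners of ATF4, were also lower on average, 15 of 17 tested being below 0 (median -0.34). With the filter and all libraries in place edgeR called none by genotype alone. At an unadjusted p below 0.05, 4 were lower, where 6.05% of all tested genes were. Their sums were 255, 373 and 320 CPM in WT and 262, 271 and 234 CPM in cKO, with overlapping groups. The log2 fold changes of Junb and Jun were -1.13 and -0.48 (edgeR adjusted p = 0.132 and 0.158). Junb was called by edgeR with no filter on low counts and without WT replicate 1. Its adjusted p ran from 0.00726 to 0.658 over all 14 alternatives. The part of immediate early genes in the levels of the ATF4 genes was not tested.

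**Figure D3:**
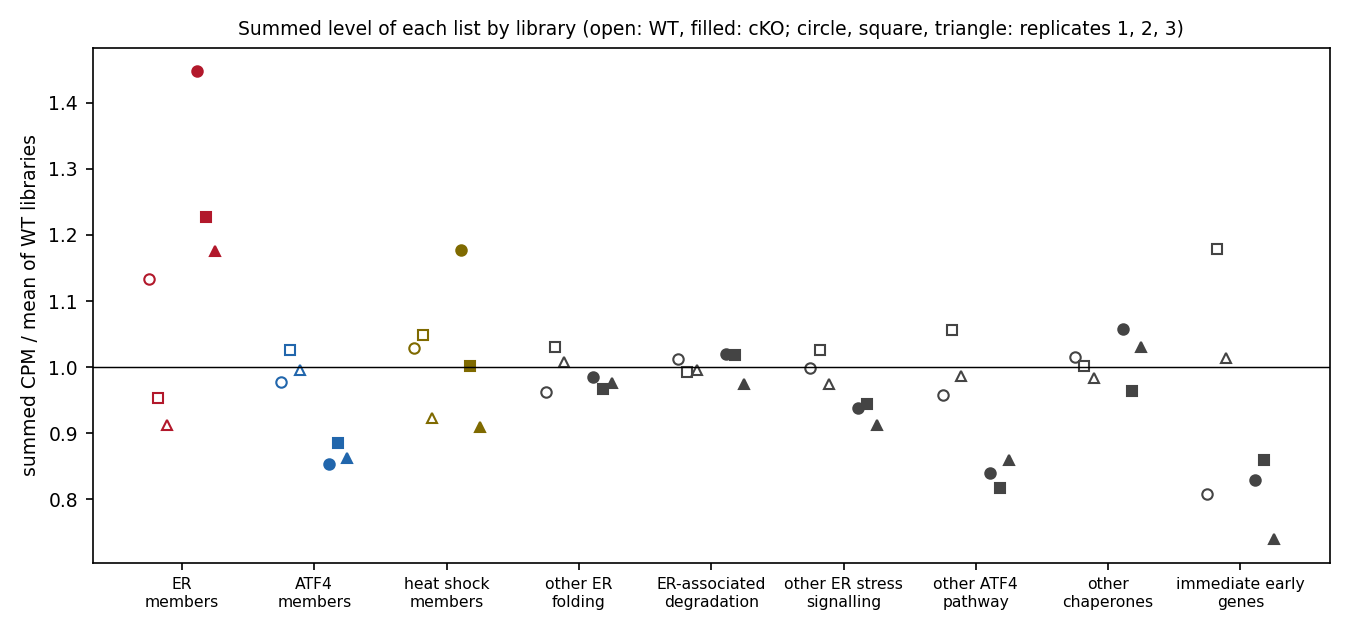
Summed CPM of each gene list in each library, divided by the mean of the WT libraries, for the 3 branches and for 6 lists of related genes (open marks WT, filled marks cKO, mark shape the replicate number). The ER sums of all cKO libraries lie above all WT libraries. The ATF4 sums lie below, as do those of other ATF4 pathway genes and of other ER stress signalling genes.

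Of the 9 heat shock genes tested, Hsph1 had the highest log2 fold change. Hsph1 encodes HSP105, a large chaperone of the Hsp110 kind that exchanges the nucleotide of Hsp70. It was at 27.8, 14.9 and 18.7 CPM in WT and at 56.7, 25.3 and 39.6 CPM in cKO. WT replicate 1 lay above cKO replicate 2, and the log2 fold change of 0.99 had an interval from -0.050 to 2.04 (unadjusted p = 0.0578, adjusted p = 0.446). With the term for the kind of library it was 0.97 (edgeR adjusted p = 0.000827), and over all alternatives the adjusted p ran from that value to 0.758. Its coefficient of variation within genotypes was 39.5%, and in each genotype replicate 1 was the highest library. No other heat shock gene tested lay beyond a log2 fold change of 0.29, that of Dnajb1, a stress-induced J-domain partner of Hsp70, at 10.2 ± 0.966 CPM in WT and 12.5 ± 1.72 CPM in cKO (SD, n = 3).

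The abundant chaperones of unstressed cells were near equal. Hspa8, the constant cytosolic Hsp70, was at 51.2 ± 4.97 CPM in WT and 53.5 ± 12.6 CPM in cKO, Hsp90ab1, the constant Hsp90, at 114 ± 18.1 and 99.7 ± 13.2 CPM, and Hsp90aa1, the inducible Hsp90, at 16.8 ± 0.275 and 17.9 ± 2.48 CPM (SD, n = 3). Their log2 fold changes were 0.066, -0.19 and 0.097, with overlapping groups. Hsf1, the master regulator of the heat shock response, was at 94.2 ± 11.96 and 90.1 ± 6.88 CPM, with an interval from -0.26 to 0.13. Dnaja1, a J-domain protein, had a log2 fold change of -0.016, Bag3, which couples Hsp70 to autophagy, 0.24, and the mitochondrial chaperonin Hspd1 0.18.

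Hspa1a and Hspa1b, the stress-induced Hsp70 pair, were nearly uncounted. For WT, Hspa1a had 1, 2 and 5 counts and Hspa1b 8, 4 and 6, and for cKO, Hspa1a had 13, 6 and 2 counts and Hspa1b 13, 2 and 2. These genes lie 10120 bases apart on chromosome 17, and 58.8% of the 50-base stretches of Hspa1a recur in Hspa1b, so their reads may be split between them. Hspb1, a small heat shock protein, had 1 to 8 counts a library. Hspe1, the partner of Hspd1, had 4 to 18 counts. These 4 genes were below the filter and were not tested. The highest values of Hspa1a, Hspa1b and Hspe1 were all in cKO replicate 1.

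Summed over the 13 heat shock genes, the WT libraries held 350.1, 357 and 314 CPM and the cKO libraries 401, 341 and 309.7 CPM, a ratio of 1.03 with overlapping groups. The ratio was 1.14 within replicate 1 and 0.969 over replicates 2 and 3. The former compares a single library of each genotype and includes Hsph1, at 27.8 CPM in WT and 56.7 CPM in cKO. Whether the ratio depends on the kind of library was not tested. Of the 13 genes, 7 were highest in cKO replicate 1. Among them Hspa8, Hsph1, Dnajb1 and Bag3 were tested, and Hspa1a, Hspa1b and Hspe1 were not. Of all 13115 tested genes, 2289 were highest in that library. Without that library the median log2 fold change of the heat shock genes was -0.066. A heat shock element (GAANNTTCNNGAA or TTCNNGAANNTTC) was in the windows of Hsph1, Hspd1 and Hspe1, 3 of 9, and in 0.662% of all genes. Hspd1 and Hspe1 overlap at their starts, and their matches are the same bases read on opposite strands. These matches are therefore not separate elements. The 61 tested genes with a heat shock element had a median log2 fold change of -0.048, and 29 were above 0.

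Per kilobase of exon, the order of the genes was led by Hsp90ab1 at 35.6 CPM per kb, Hsp90b1 at 28.9 and Calr at 26.2, as means over the 6 libraries. Hsf1 at 13.0, Hspa5 at 12.6, Hspa8 at 12.2, Atf4 at 11.4, Creld2 at 11.0 and Eif2ak4 at 10.6 CPM per kb were close together. In nuclear RNA, reads of introns and retained transcripts may be counted differently by gene, which this order does not take into account. At the bottom were Hspa1a at 0.233 and Hspa1b at 0.296 CPM per kb.

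Lists of other genes of the same compartments had medians nearer to 0 than the ER branch. Of 18 tested genes for other steps of folding in the ER, 14 had a log2 fold change below 0 (median -0.085). Ero1b, an oxidase that recharges the disulfide isomerases, was at 10.8 ± 2.18 CPM in WT and 16.7 ± 3.90 CPM in cKO (adjusted p = 0.157), and Cnpy3 at 20.5 ± 1.82 and 14.7 ± 1.19 CPM (0.185). Genes of ER-associated degradation were evenly divided, 9 of 18 on each side (median -0.028), with Derl2, a part of the channel for misfolded proteins, at 12.2 ± 1.38 and 19.3 ± 2.29 CPM (0.0820) and Selenos at 4.99 ± 0.532 and 2.69 ± 0.927 CPM (0.286). Other ER stress signalling genes were below 0 in 10 of 12 (median -0.092), led by Nck1 with a log2 fold change of -0.39 (0.278) and Atf6b with -0.13 (0.627). Their sums were 427, 438 and 416 CPM in WT and 400.4, 403 and 390 CPM in cKO, without overlap. Other cytosolic chaperones and cofactors had 18 of 33 above 0 (median 0.028), with Chordc1 at 0.43 (0.209) and Bag1 at -0.56 (0.216). The TRiC chaperonin had 4 of 8 above 0, led by Cct7 at 0.20 and Tcp1 at 0.18, and other mitochondrial chaperones and proteases 6 of 10, with Lonp1 at -0.27 (0.143) and Grpel1 at -0.24 (0.666). The sums of the mitochondrial list were 340, 355 and 378 CPM in WT and 338, 336 and 336 CPM in cKO, also without overlap. With the filter and all libraries in place, none of edgeR, DESeq2 and limma-voom called a gene of these lists, and with no filter on low counts edgeR called Derl2 (adjusted p = 0.0341, up to 0.327 under other alternatives). At an unadjusted p below 0.05, edgeR had 1 higher and 1 lower for other ER folding, the same for degradation, 1 lower for signalling, 2 higher and 2 lower for cytosolic chaperones, 0 for TRiC and 1 lower for the mitochondrial list. Genes with groups that did not overlap were 2 higher and 2 lower for other ER folding, and 4 higher and 3 lower for degradation. They were 3 lower for signalling, 3 higher and 2 lower for cytosolic chaperones, 0 for TRiC and 1 lower for the mitochondrial list. Of all tested genes, 7.88% were higher and 8.39% lower without overlap. Whether any list differs from the ER branch was not tested.

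**Figure D4:**
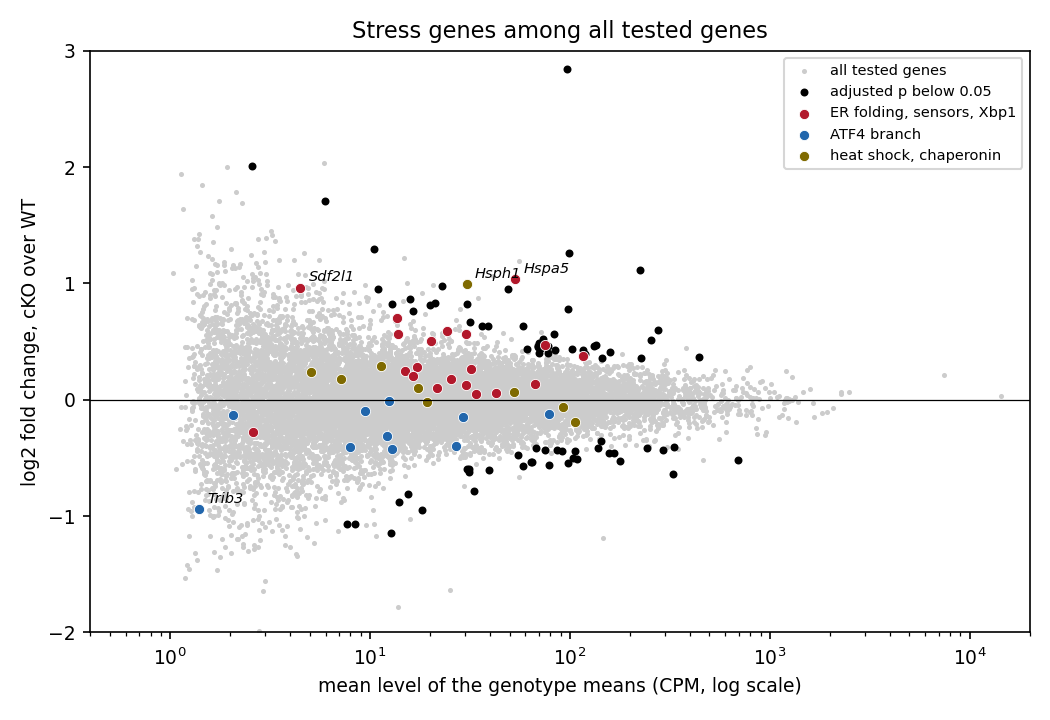
Log2 fold change of cKO over WT against the mean level of the genotypes in CPM (log axis) for all tested genes, with the genes of the 3 branches coloured and the called genes in black. No coloured gene is a called one, and Hspa5 and Hsph1 lie near a log2 fold change of 1. The vertical range is -2 to 3, and 8 genes fall outside the range of the vertical or the horizontal axis.

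Markers of other cells were read beside the branches. Oligodendrocyte markers, all 11 tested, had log2 fold changes above 0 in all 11, with none called by edgeR and 0 at an unadjusted p below 0.05. They summed to 275 to 469 CPM in WT and 330.1 to 731 CPM in cKO. Of the other lists, 10 of 10 astrocyte, 3 of 10 microglial, 5 of 11 vascular, 2 of 5 choroid plexus, 10 of 10 Purkinje cell, 10 of 10 interneuron and 2 of 4 unipolar brush cell markers passed the filter. Astrocyte markers summed to 125 to 154 CPM in WT and 139 to 150.2 CPM in cKO, microglial ones to 17.97 to 39.6 and 24.5 to 29.4 CPM, vascular ones to 22.9 to 28.004 and 17.4 to 29.4 CPM, and choroid plexus ones to 6.27 to 14.5 and 11.4 to 14.9 CPM. Purkinje cell markers summed to 953 to 1164 and 914 to 1106 CPM, interneuron markers to 206 to 240.1 and 192 to 225 CPM, and unipolar brush cell markers to 53.4 to 65.9 and 57.9 to 74.1 CPM. The genotypes overlapped in each of these sums. No marker of these lists was at 0 in all libraries, Ttr, the defining choroid plexus marker, had 0 to 4 counts a library, and their part in the stress genes was not tested.

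The precision of the 39 tested genes was that of the table. Their median standard error was 0.17 on the log2 scale, against 0.18 over all tested genes. For 31 of the 39 the 95% interval lay within 2-fold in either direction, where 81% of all tested genes did, and for 17 within 1.5-fold, where 54.5% did.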

How the data were processed

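Nuclei were pelleted through iodixanol, fixed in formaldehyde and sorted for NeuN, and nuclear RNA was sequenced, per the labels' protocols. The deposited values are whole-number counts per gene, not normalized, made with Subread against mm10 per the submitters' processing notes. Version, annotation, strand setting and treatment of multi-mapping reads were not given in the sources used here. Symbols came from the RefSeq annotation of GRCm38.p6, which matched 24570 of 24594 entries. An unmatched entry with 26.0% of counts stayed in the library sizes.

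Counts were analysed with R 4.3.3 and edgeR 4.0.16: filterByExpr with default settings (13115 genes, 99.8% of counts), TMM scaling, and robust glmQLFit and glmQLFTest for genotype over all 6 libraries, two-sided, with Benjamini-Hochberg adjustment over all tested genes and a threshold of 0.05. CPM are counts per 1e+06 of the library total times its TMM factor, given as mean ± SD of 3 libraries. Exon lengths are from GENCODE M21, and promoter windows of 300 bases from RefSeq. Libraries of a genotype were not copies of each other (chi-square over its degrees of freedom 4.03 to 5.00). The members and lists were chosen with earlier results of these data known, so no list was given a p-value. Named genes were Ezh1, all 43 members and, of each related list, the called genes and the 2 of smallest p. Rabepk, Catsper2, Mbd6, Mars1 and Ddx19b are named as overlapping genes and Xist and Neurod1 as checks. Alternatives were other scalings, no filter, DESeq2 1.42.0, limma-voom (limma 3.58.1), added terms and leaving out each library. The fit was tested on simulated data.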

Additional observations from a re-analysis of the deposited data

How the results depend on the processing

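The number of stress genes called, 0 in the analysis above, was 1 with library size alone (Pdia6), 6 with no filter, 1 with DESeq2 (Hsp90b1, with many genes given no adjusted p), 5 with a term for the kind of library and 0 to 5 leaving out each library. The number at an unadjusted p below 0.05 was 6 to 12 over the left-out libraries, against 11. Over all genes the calls, 76 above, were 277 with no filter, 115 with DESeq2, 125 with the library term and 13 to 249 over the left-out libraries. With library size alone 69 genes were called higher and 32 lower, against 42 and 34. The cause of these shifts was not tested. The branch medians over the left-out libraries were 0.22 to 0.36 for ER genes, -0.33 to -0.14 for ATF4 genes and -0.066 to 0.21 for heat shock genes. Over all 14 alternatives 17 to 19 of 20 ER genes were above 0 and 8 to 10 of 10 ATF4 genes below.

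With the replicate number as a block, 3 stress genes were called (Hsp90b1, adjusted p = 0.0445, Hspa5, 0.000245, and Hsph1, 0.0015) and 90 genes in all. The numbers were not taken as pairs: deviations of same-numbered libraries correlated at 0.152, 0.00548 and -0.0382, and not every library correlated best with its own number.

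Single genes near 0 reversed. With library size alone Ddit3 was at 0.025 and Dnaja1 at 0.016. Over the left-out libraries the log2 fold change ran from -0.23 to 0.29 for Dnajb11, -0.0069 to 0.23 for Ern1, -0.039 to 0.13 for Atf6, -0.032 to 0.11 for Eif2ak3, -0.061 to 0.050 for Ddit3, -0.46 to 0.21 for Chac1, -0.085 to 0.24 for Hspa8, -0.14 to 0.12 for Dnaja1, -0.14 to 0.042 for Hsf1 and -0.19 to 0.61 for Bag3. Dnajb9, Trib3 and Chac1 had only 5 to 23 counts a library.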
